A study of Rattus norvegicus with 16 samples.

Results

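The Achilles tendon of the hindlimb and the flexor tendons of the forepaw were compared by RNA sequencing in Sprague Dawley rats. The comparison used the 8 libraries labelled Achilles or flexor, 4 of each tendon, out of the 16 in the series; the other 8 came from the patellar and supraspinatus tendons and helped to set the filter, the scaling and the estimate of the spread. All 16 libraries were made from total RNA of whole tendon tissue, purified with the miRNeasy Micro kit and DNase I, and no library was labelled with a treatment, an allele, an age or a sex. Whether the 4 libraries of a tendon are from separate animals is not stated in the labels; p-values thus measure only the spread between these samples, which may be technical.

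Tendons are cords of collagen laid down by tenocytes that carry the pull of muscle to bone. The Achilles tendon joins the calf muscles to the heel and carries body weight at each step, whereas the flexor tendons of the digits are thin, glide through sheaths lined with synovial cells and end in the paw. Cells of the limb keep a record of their position in the HOX clusters and in T-box and homeobox factors: in embryos, Tbx5 marks the forelimb, Pitx1, Isl1 and Tbx4 the hindlimb, the posterior HOXC genes the hindlimb, and the last genes of the HOXD cluster the distal end of either limb.

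Total counts ran between 85403509 and 102491699 in Achilles libraries and between 92673343 and 102130759 in flexor libraries. At that depth 3 counts, the limit that a count of 0 allows, are between 0.0266 and 0.0334 CPM (counts scaled to a fixed library total), and such limits cover counting error only. The tendon markers Scx, Mkx, Tnmd, Fmod and Thbs4 were present in all 8 libraries. Scx, the transcription factor of the tendon lineage, had 5.67, 25.4, 26.7 and 86.4 CPM in Achilles libraries 1 to 4 and 35.7, 42.9, 38.4 and 31.4 CPM in flexor libraries 1 to 4. Fmod, a collagen-binding proteoglycan, averaged 5013 ± 2210 CPM in Achilles and 5508 ± 1520 CPM in flexor tendon (SD, n = 4 each, as throughout). Neither passed the test (adjusted p = 0.96 and 0.736). Of the 17 genes in the list of tendon factors and markers, 0 were higher and 7 lower, with a median log2 fold change of -0.92 (2 higher and 8 lower without Achilles 1); Egr1 and Comp, described with their groups, were among the 7. The library Achilles 1 stood apart from the other 3: its Schwann cell and nerve markers summed to 0.894% of the library, against 0.13 to 0.157% in Achilles 2 to 4 and 0.286 to 0.454% in the flexor libraries. Results that rest on it are given with and without it. The fast muscle markers summed to 0.0201, 0.16, 0.0402 and 0.138% in Achilles libraries and 3.12, 1.84, 0.811 and 2.3% in flexor libraries, with no overlap. The markers of slow fibres and of muscle in general summed to 0.034, 1.21, 0.255 and 1.21% in Achilles and 3.64, 2.12, 1.01 and 2.65% in flexor libraries, so that Achilles 2 and 4 lay above flexor 3. Adipocyte markers ran the other way, at 2.36, 1.33, 1.47 and 0.775% in Achilles and 0.275, 0.254, 0.169 and 0.307% in flexor libraries. In bulk samples such as these, fewer cells of a type and less RNA per cell cannot be told apart.

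**Figure D1:**
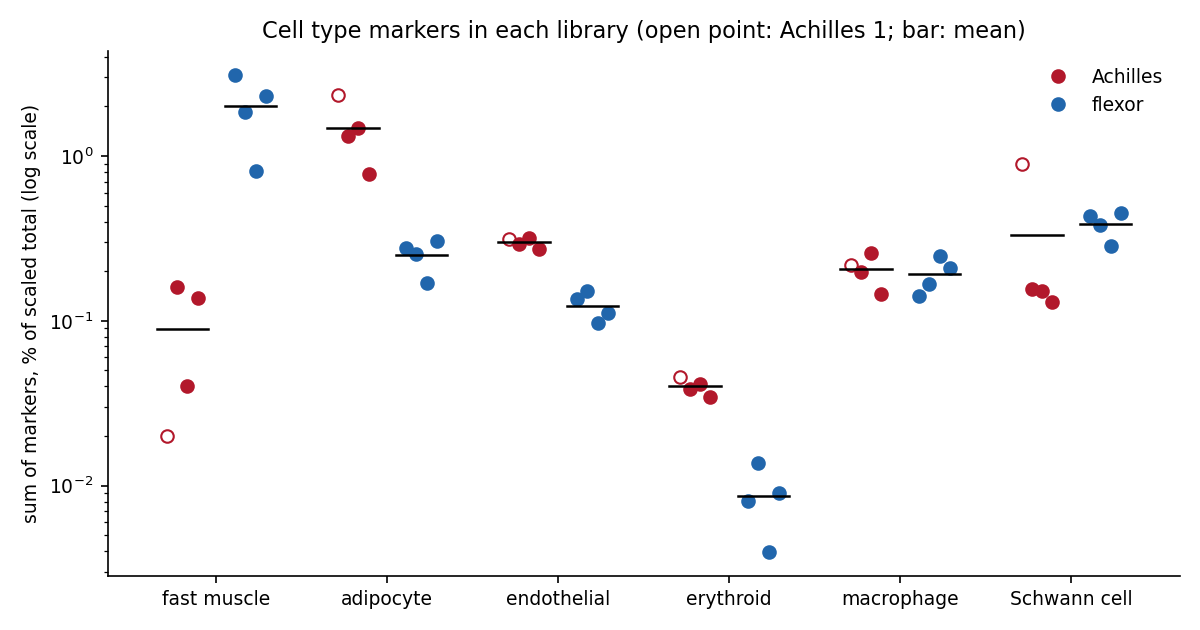
Summed level of 6 marker lists as a percentage of the scaled library total (vertical axis, log scale), with 1 point per library, Achilles left of flexor, and a bar at each mean. Fast muscle markers lie lower in every Achilles library than in any flexor library, adipocyte and endothelial markers lie higher, and Achilles 1 (open point) lies above all other libraries for the Schwann cell markers.

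The tendons differed in a large share of the genes measured. Of 16948 genes tested, 8076 (47.7%) had an adjusted p under 0.05 in edgeR's quasi-likelihood test, 3987 (23.5%) higher and 4089 (24.1%) lower in Achilles than in flexor tendon. A difference of at least 2-fold was estimated for 1700 of the higher and 2406 of the lower genes, and one of at least 8-fold for 330 and 339. The 4 Achilles and the 4 flexor libraries did not overlap for 7876 genes (46.5%). Without Achilles 1 the test made 7405 calls among 17153 genes (43.2%); 6978 calls were shared, all in the same direction. On the 500 most variable genes, the first principal component held 71.2% of the variance and separated the tendons, and the second held 16.2% and set Achilles 1 (42.8) apart from Achilles 2 to 4 (-29.2 to -13.1). Each library lay nearest to one of its own tendon. The authors' deposited table gave 6382 of its 12588 genes an adjusted p under 0.05 for this pair, 3339 of them higher and 3043 lower in Achilles, and 5981 were called in both analyses with 0 in opposite directions.

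**Figure D2:**
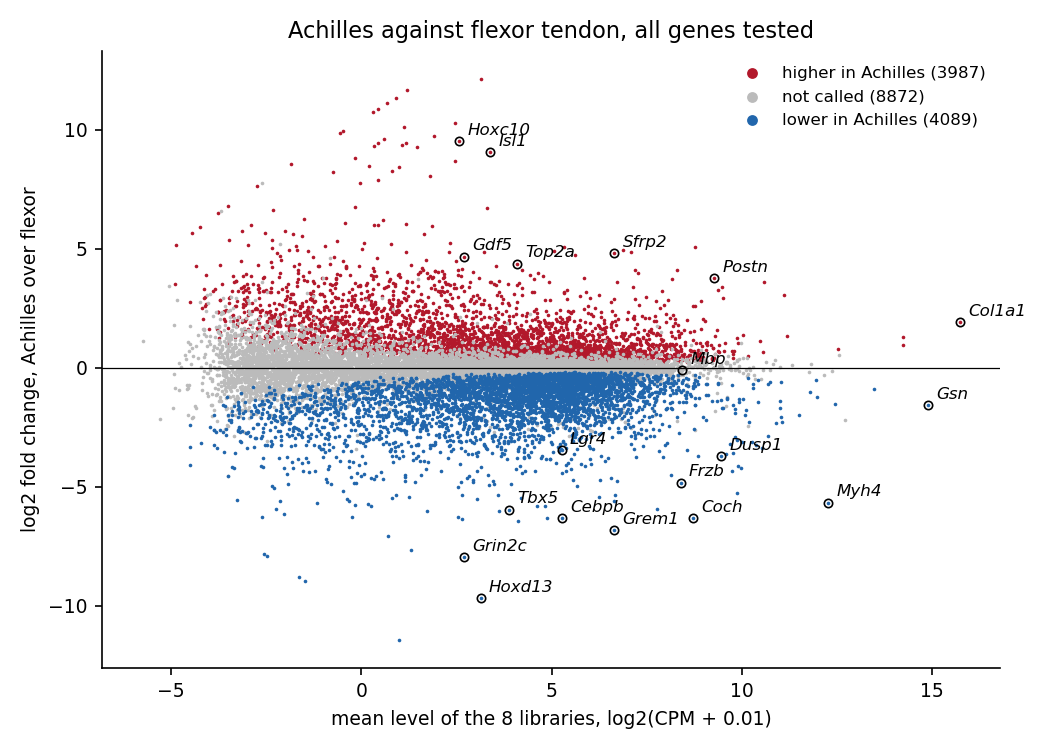
Log2 fold change, Achilles over flexor (vertical axis), against the mean level of the 8 libraries in log2 CPM (horizontal axis) for each of the 16948 genes tested. Coloured points are the 8076 genes called; the labels name genes described in the text, such as Isl1 at 9.07 and Grem1 at -6.81.

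Genes of limb position gave some of the largest contrasts. Hoxc10 (ENSRNOG00000016149), a posterior HOX gene, had 10.6, 14.4, 9.95 and 12.7 CPM in Achilles and 0.0189, 0.0202, 0.00973 and 0.0103 CPM in flexor libraries, where it had 1 to 2 counts each. No value of one tendon came near the other (adjusted p = 1.68e-09). All 7 HOXC genes tested were higher in Achilles tendon. Hoxc8, Hoxc9 and Hoxc11 had means of 2.66, 1.93 and 2.69 CPM in Achilles libraries and 2 counts or fewer in each flexor library, and Hoxc4, Hoxc5 and Hoxc6, the anterior members, were higher by 3.91 ± 0.354, 2.88 ± 0.271 and 3.76 ± 0.298 on the log2 scale (± SE, as throughout). Of 8 HOXB genes 6 were higher, led by Hoxb7 at 8.72 ± 0.959 CPM in Achilles and 1.43 ± 0.25 CPM in flexor tendon, and 0 were lower.

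The HOXD cluster ran the opposite way. Hoxd13 (ENSRNOG00000001588), the gene of the digits, had 0.0532, 0, 0 and 0.0222 CPM in Achilles libraries and 16.6, 14.2, 22.1 and 17.2 CPM in flexor libraries (adjusted p = 3.17e-07). Hoxd12 had 0 counts in every Achilles library, which allows up to 0.0334 CPM, and 0.626 ± 0.213 CPM in flexor tendon. Hoxd11, Hoxd10 and Hoxd9 were lower in Achilles tendon, with log2 fold changes of -4.79 ± 0.442, -2.84 ± 0.403 and -2.01 ± 0.311. Hoxd8 stood at 1.27 ± 0.166 CPM in Achilles tendon, against 1.5 ± 0.352 CPM in flexor tendon, with overlapping libraries (adjusted p = 0.388). Of 8 HOXD genes tested 5 were lower and 0 higher.

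The limb identity factors did not all follow the limb of origin. Isl1, a LIM homeobox gene that acts upstream of the hindlimb programme in mouse embryos, had 12.8, 23, 22.8 and 24.4 CPM in Achilles libraries and 0.0377, 0.0706, 0.0292 and 0.0103 CPM in flexor libraries, a log2 fold change of 9.07 ± 1.13 (adjusted p = 2.11e-05). Pitx1 had 3.9, 14.1, 18.5 and 35.5 CPM in Achilles and 0.413 to 0.963 CPM in flexor libraries (4.86 ± 0.624, adjusted p = 2.61e-05). Tbx5, the forelimb T-box factor, had 0.156 to 0.817 CPM in Achilles and 25.3, 25.9, 39.4 and 25.4 CPM in flexor libraries (-5.96 ± 0.573, adjusted p = 2.52e-06). These 3 genes separated the tendons with no overlap. Isl1 and Pitx1 did not follow the limb in the other tendons of the series: Isl1 averaged 0.215 CPM in patellar tendon, of the hindlimb, and 0.0187 CPM in supraspinatus tendon, of the shoulder, and Pitx1 averaged 15.3 and 11.3 CPM there. Tbx5 averaged 5.03 ± 2.67 CPM in patellar and 12.1 ± 2.58 CPM in supraspinatus tendon, so patellar tendon lay above the Achilles mean of 0.464 CPM. Tbx4, the hindlimb T-box factor, did not separate Achilles from flexor tendon. It had 6.43, 15.3, 15.1 and 31.6 CPM in Achilles and 26.2, 24.2, 45.8 and 28.3 CPM in flexor libraries, with a log2 fold change of -0.86 ± 0.432 (adjusted p = 0.114, or -1.34 and 0.0174 without Achilles 4). Hand2, a factor of the posterior limb bud, was lower in Achilles tendon (2.87 against 6.26 CPM in flexor tendon; not called without Achilles 2 or flexor 3), and the T-box gene Tbx3 was higher (18.8 against 8.29 CPM).

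Of 29 further proximodistal and regional limb factors tested, 6 were higher and 17 lower in Achilles tendon (7 and 15 without Achilles 1, and 3 and 9 with the level of the fast muscle markers as a covariate). Those markers did not overlap between Achilles and flexor libraries, so the covariate is partly confounded with the contrast. A call lost with it, here and below, does not show that muscle RNA made the difference. Shox2, a factor of the proximal limb, stood at 12.6 CPM in Achilles tendon, against 1.8 CPM in flexor tendon (log2 fold change 2.80), and Meis2, which marks proximal limb mesenchyme, at 2.11 and 0.496 CPM (2.08). Sall1, a zinc-finger gene of the distal limb, stood at 0.43 CPM in Achilles tendon, against 11.8 CPM in flexor tendon (-4.78), Lhx2 at 0.389 and 5.87 CPM (-3.92), and Irx5 at 0.401 and 6.31 CPM (-3.98). The homeobox gene Prrx2 was lower in Achilles tendon (7.35 against 67.4 CPM), whereas Msx1 was higher (42.6 against 19.5 CPM).

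**Figure D3:**
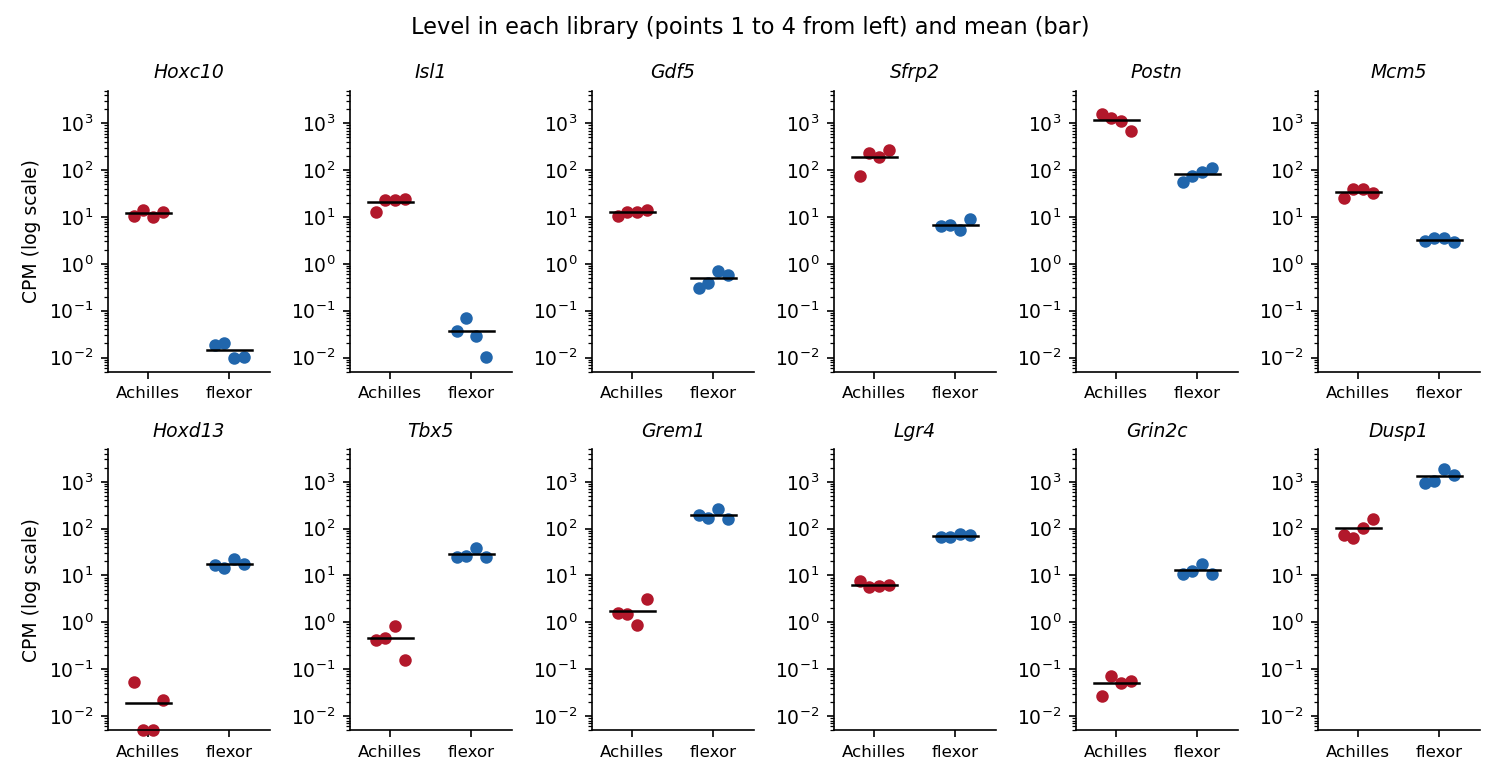
Level of 12 genes in each library (vertical axis, CPM on a log scale; values of 0 are drawn at the bottom edge), Achilles left of flexor, with a bar at the mean of each tendon. The libraries of Hoxc10, Isl1, Gdf5, Sfrp2, Postn and Mcm5 lie higher in Achilles, those of Hoxd13, Tbx5, Grem1, Lgr4, Grin2c and Dusp1 lie lower, and in none of the 12 do the tendons overlap.

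Fibrillar collagen genes were mostly higher in the Achilles. Col1a1, the main chain of tendon collagen, made up 8.57 ± 3.14% of the scaled total in Achilles and 2.27 ± 0.528% in flexor libraries (log2 fold change 1.92 ± 0.341, adjusted p = 0.000384), and the libraries did not overlap. Of 11 fibrillar collagen genes tested 7 were higher and 0 lower, with a median log2 fold change of 0.94 beside 0.008 over all genes; 5 were higher without Achilles 1, the calls of Col3a1 and Col5a3 being lost, 4 without Achilles 2, and 2 with the muscle covariate. Col2a1, Col11a1 and Col11a2, collagens of cartilage that fibrocartilage also makes, were higher by 2.29 ± 0.701, 1.23 and 1.49. Reads of Col1a2 may be counted in part at other loci of the annotation, so its level, 237 ± 151 CPM in Achilles and 65.3 ± 18.8 CPM in flexor tendon, is uncertain. Among 12 fibril-associated and type VI collagens 3 were higher and 1 lower (3 and 3 without Achilles 1); the higher ones included Col12a1 (323 ± 189 CPM in Achilles, 122 ± 29.2 CPM in flexor tendon) and Col22a1, a collagen of the muscle-tendon junction (40.5 ± 21.6 and 13 ± 5.24 CPM). Leaving out 1 library ended the calls of Col2a1 (Achilles 2, adjusted p = 0.0531), Col12a1 (Achilles 4, 0.0578), Col11a1 and Col11a2 (Achilles 2 or 4 or flexor 1 or 4, up to 0.113 and 0.101) and Col22a1 (Achilles 2 or 3 or flexor 1, 3 or 4, up to 0.0752). Enzymes and chaperones that process collagen were called in 48% of cases, near the 47.7% of all genes: 8 of 25 were higher, with Loxl2, a crosslinking lysyl oxidase, at 1.5 ± 0.245, and 4 were lower, with the prolyl hydroxylase genes P4ha3 at -4.99 ± 0.601 and P3h2 at -3.71 ± 0.356.

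Proteins that sit on and between collagen fibrils divided by gene. Postn, periostin, had 1551, 1267, 1103 and 684 CPM in Achilles and 56.2, 76.3, 90 and 112 CPM in flexor libraries (3.78 ± 0.414, adjusted p = 7.24e-06). Tnc, tenascin-C, stood at 725 ± 311 CPM in Achilles tendon, against 120 ± 19.5 CPM in flexor tendon (2.59 ± 0.329), and Sparc, which binds newly made collagen, at 27540 ± 6670 and 11230 ± 1400 CPM (1.29 ± 0.226). In contrast, Cilp, which encodes a cartilage matrix protein, had 180, 235, 142 and 261 CPM in Achilles and 1381, 1383, 2405 and 1500 CPM in flexor libraries (-3.03 ± 0.247, adjusted p = 7.02e-07), and Comp was lower as well (2424 ± 1330 and 5667 ± 2270 CPM). Of 23 matricellular genes 6 were higher and 8 lower. Decorin (Dcn), the most abundant small proteoglycan transcript of tendon, stood at 8046 ± 2050 CPM in Achilles tendon, against 14840 ± 3360 CPM in flexor tendon (-0.88 ± 0.268), and 4 of 12 genes of its family were lower and 1 higher (2 higher without Achilles 1). The share of that family called was 41.7%, beside 47.7% of all genes. Without flexor 3 neither Comp nor Dcn was called (adjusted p = 0.0656 and 0.0526). The microfibril gene Mfap2 was higher (228 ± 52.6 against 53.4 ± 11.2 CPM) and the fibulin gene Fbln1 lower (34.4 ± 18.9 against 457 ± 108 CPM) among 19 elastic fibre genes, of which 7 rose and 7 fell.

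Genes of cartilage and of the sheath went both ways, and genes of bone mineral were higher more often than lower. Sox9, the master factor of cartilage, was lower in Achilles tendon, at 7.6, 7.44, 7.4 and 24.8 CPM, than in flexor tendon, at 89.3, 96.3, 194 and 116 CPM (-3.39 ± 0.577; -4.05 without Achilles 4, its highest Achilles library). Ucma, a matrix protein of fibrocartilage and growth cartilage, was higher at 136, 164, 164 and 242 CPM in Achilles and 16.8, 15.4, 40.3 and 23.9 CPM in flexor libraries (2.87 ± 0.376). Of the 19 genes in the chondrocyte list 5 were higher and 4 lower (3 higher without Achilles 2 or 4). The share called, 47.4%, was near the 47.7% of all genes, and with the muscle covariate 1 was higher and 2 were lower. Bglap, osteocalcin of bone, split the Achilles libraries: it had 0.337, 9.28, 14 and 0.69 CPM there and 0.0927 to 0.17 CPM in flexor libraries (5.64 ± 1.04, and 4.84 without Achilles 3). Of 14 osteoblast and mineralisation genes 6 were higher and 1 lower, and their sum was 0.106 to 0.149% in Achilles and 0.0646 to 0.0948% in flexor libraries. The share called, 50%, was near the 47.7% of all genes, and with the muscle covariate 3 were higher and 1 lower. Prg4, which encodes lubricin, the boundary lubricant of sheaths and joints, had 995, 1278, 2032 and 795 CPM in Achilles and 1041, 1219, 1571 and 1154 CPM in flexor libraries, and the tendons overlapped (0.03 ± 0.293, adjusted p = 0.938). Clu was lower in Achilles (-1.52 ± 0.259), and of 14 sheath genes 5 were higher and 4 lower. Their sum was 0.466 to 0.557% in Achilles and 0.792 to 1.56% in flexor libraries, and Clu alone averaged 0.29 and 0.833%. Cd34, a marker of progenitor and vascular cells, had 11.3, 187, 173 and 12.6 CPM in Achilles and 9.84 to 13.2 CPM in flexor libraries, so that its call (adjusted p = 0.0197) was lost without Achilles 2 or 3 (0.0549 and 0.0523).

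More ADAMTS protease genes of the matrix were higher than lower, but their summed level was lower in Achilles tendon. The protease inhibitor gene Timp2 was lower as well. Of 21 ADAMTS genes 12 were higher and 4 lower (median 1.03), with the aggrecanase gene Adamts4 at 48.4, 16.7, 14.8 and 10.9 CPM in Achilles and 2.27 to 3.17 CPM in flexor libraries (3.03 ± 0.495, and 2.35 without Achilles 1). With the muscle covariate the counts were 7 and 2. The 21 genes summed to 0.0838 to 0.0982% in Achilles and 0.1 to 0.118% in flexor libraries. Adamts2, which trims the amino end of procollagen, was lower (-1.42 ± 0.408). Of 19 metalloproteinases and inhibitors 8 were higher and 3 lower, and their sum was 0.263 to 0.313% in Achilles and 0.328 to 0.422% in flexor libraries. Timp2, an inhibitor of metalloproteinases, had 109, 175, 194 and 363 CPM in Achilles and 1317, 1617, 1766 and 1668 CPM in flexor libraries (-2.92 ± 0.477, adjusted p = 0.000192), and the tendons did not overlap. Gsn, gelsolin, which severs actin filaments and is also secreted into plasma, was the most abundant transcript of flexor tendon at 4.54 ± 1.64% of the scaled total, against 1.52 ± 0.51% in Achilles tendon (-1.58 ± 0.318).

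Wnt ligands, and a list of Wnt receptors, R-spondin system genes and targets, were mostly lower in Achilles than in flexor tendon. The Wnt pathway carries signals from lipid-modified ligands through Frizzled and LRP receptors, with R-spondins and LGR receptors as amplifiers and SFRP proteins as decoys. Lgr4 had the smallest p of all genes tested, with 7.68, 5.74, 5.83 and 6.37 CPM in Achilles and 65.6, 67.7, 77.6 and 71.5 CPM in flexor libraries (-3.46 ± 0.126, adjusted p = 9.86e-10). Of 30 Wnt receptor, R-spondin system and Wnt target genes 4 were higher and 18 lower (median -1.01). Among them the co-receptor genes Lrp5 and Lrp6 were lower (-2.32 ± 0.339 and -1.95 ± 0.231), as were Rspo1 (-3.54 ± 0.44) and Fzd9 (-3.78 ± 0.483), whereas Fzd4, the vascular Frizzled, was higher (1.33 ± 0.155), as was Lgr5 (1.70 ± 0.478). Of 13 Wnt ligand genes tested 9 were lower and 0 higher (median -1.64), led by Wnt11 at 4.25 ± 0.988 CPM in Achilles and 42.2 ± 6.49 CPM in flexor tendon; with the muscle covariate 2 of the 9 calls were left. Sfrp2 and Frzb, both decoys, went in opposite directions. Sfrp2 had 75.3, 236, 187 and 275 CPM in Achilles and 5.35 to 8.95 CPM in flexor libraries (4.82 ± 0.522). Frzb had 37.7, 17.1, 19.1 and 17.6 CPM in Achilles and 312, 314, 1242 and 729 CPM in flexor libraries (-4.83 ± 0.492).

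Bone morphogenetic proteins and their antagonists shape joints and the ends of tendons in the embryo. Grem1, an antagonist, had 1.55, 1.53, 0.877 and 3.08 CPM in Achilles and 195, 171, 263 and 161 CPM in flexor libraries (-6.81 ± 0.42, adjusted p = 1.35e-07). Gdf5, the ligand of the joint interzone and of early tendon insertions, had 10.4, 12.8, 12.6 and 14.2 CPM in Achilles and 0.311, 0.383, 0.7 and 0.567 CPM in flexor libraries (4.67 ± 0.384, adjusted p = 7.64e-07). Both were separated with no overlap. Other ligands were lower: Bmp6 at 2 ± 0.252 CPM in Achilles and 24.2 ± 2.13 CPM in flexor tendon, Bmp2 at 6.08 ± 1.88 and 25.7 ± 7.7 CPM, and Bmp4 at 34.2 ± 7.95 and 60.6 ± 4.72 CPM. Of 14 ligands 2 were higher (1 without Achilles 1 or 3 or flexor 1, 2 or 3) and 5 lower, and of 16 antagonists 1, the chordin-like gene Chrdl1 (1.93 ± 0.25), was higher and 10 lower. The shares called were 50% of the ligands and 68.8% of the antagonists, beside 47.7% of all genes. Smad6, an inhibitory SMAD gene, was lower (log2 fold change -3.42 ± 0.515, and -4.03 without Achilles 4).

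Hedgehog genes were lower or did not pass the test, 9 and 5 of 14 (median -1.09). Gas1, a co-receptor for hedgehog ligands, had 5.01, 11.8, 17.4 and 60.6 CPM in Achilles and 405, 441, 737 and 582 CPM in flexor libraries (-4.51 ± 0.824; -5.57 without Achilles 4). Shh itself was scarce, at 0 to 0.31 CPM in Achilles and 0.379 to 1.59 CPM in flexor libraries, and its adjusted p of 0.0179 became 0.000959 without Achilles 1 and 0.0541 without Achilles 2. Of 22 FGF ligands, receptors and feedback genes 3 were higher and 15 lower (median -1.40): Fgf9, known from joint and skeletal growth, was lower (-2.40 ± 0.316), as was Fgf2 (-3.11 ± 0.438), while Fgf10, a ligand of limb mesenchyme, was higher (1.69 ± 0.334). In the insulin-like growth factor axis, ligand and receptor moved apart. Igf1 had 532, 420, 474 and 362 CPM in Achilles and 89.3, 102, 103 and 129 CPM in flexor libraries (2.08 ± 0.16, adjusted p = 4.78e-07). Igf1r, its receptor, had 13.7, 19.3, 20.1 and 24.5 CPM in Achilles and 86.7, 87.2, 80.9 and 72.2 CPM in flexor libraries (-2.08 ± 0.215, adjusted p = 4.6e-06). Pappa2, a protease that frees IGF from its binding proteins, was higher at 11 ± 1.29 CPM in Achilles and 0.637 ± 0.112 CPM in flexor tendon (4.11 ± 0.253).

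Several receptors and channels better known from the nervous system separated the tendons. Grin2c, a subunit of NMDA glutamate receptors, had 0.0266, 0.0725, 0.0504 and 0.0556 CPM in Achilles and 10.9, 12.6, 17.6 and 10.5 CPM in flexor libraries (-7.95 ± 0.342, adjusted p = 3.5e-09). The AMPA receptor gene Gria3 was higher in Achilles (5.05 against 0.974 CPM). Of 17 glutamate receptor genes 5 were higher and 3 lower (3 higher without Achilles 3 or flexor 2). That is 47.1% called, near the 47.7% of all genes. With the muscle covariate 1 was higher and 2 were lower. The stretch-activated channel genes Piezo1 and Piezo2 moved in opposite directions, Piezo1 at 80.6 ± 6.74 CPM in Achilles and 200 ± 26.4 CPM in flexor tendon (-1.31 ± 0.146) and Piezo2 at 28 ± 8.62 and 10.3 ± 2.46 CPM (1.44 ± 0.339). Trpc1, a cation channel gene, was lower at 2.19 ± 0.233 CPM in Achilles and 12 ± 0.991 CPM in flexor tendon (adjusted p = 8.56e-08). Of 17 mechanosensitive and TRP channel genes 4 were higher and 8 lower. Of 38 axon guidance genes 5 were higher and 15 lower, with the netrin genes Ntn1 and Ntn4 at 3.81 and 5.19 CPM in Achilles and 49.5 and 61 CPM in flexor tendon. The share of guidance genes called was 52.6%, beside 47.7% of all genes.

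Among the other genes with the largest changes, Coch, which encodes cochlin, a secreted matrix protein known from the inner ear, had 0.744, 12.6, 11.3 and 17.5 CPM in Achilles and 624, 936, 915 and 857 CPM in flexor libraries (-6.30 ± 0.866). Cebpb, a basic leucine zipper factor of inflammation and fat cell formation, had 0.912, 0.601, 0.756 and 1.58 CPM in Achilles and 40.2, 42.2, 95.1 and 130 CPM in flexor libraries (-6.32 ± 0.483). Both were lower in each Achilles library than in any flexor library. The Polycomb genes Cbx7 and Phc2 were lower too, at 6.59 ± 1.22 and 28.3 ± 2.11 CPM in Achilles and 56.4 ± 10.6 and 120 ± 5.14 CPM in flexor tendon. In the other direction, Il13ra2, a decoy receptor for interleukin 13, stood at 9.51 ± 2.32 CPM in Achilles tendon, against 0.322 ± 0.0914 CPM in flexor tendon (4.88 ± 0.435), and Lamc3, a laminin chain, at 32.8 ± 8.73 and 2.75 ± 0.641 CPM (3.58 ± 0.242).

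Immediate early genes encode transcription factors and RNA regulators that cells switch on within minutes of a stimulus, and dual-specificity phosphatases (DUSPs) turn off the MAP kinases that drive them. The serum response factor binds a CArG box in many of their promoters, and CREB binds a cAMP response element. Promoters of 4 genes of these lists that hold such an element and were lower in Achilles tendon are shown, to make the elements visible. They are RefSeq sequences of build GRCr8, each 250 bases before to 50 after the start of the gene, 5′ to 3′ on the strand of the gene. Capitals mark the CArG boxes in Egr1 (chr18:26736828-26737127, plus strand) and Zfp36 (chr1:92799059-92799358, minus strand) and the cAMP response element TGACGTCA in Jund (chr16:18769722-18770021, minus strand) and Dusp1 (chr10:17184603-17184902, plus strand).
Egr1: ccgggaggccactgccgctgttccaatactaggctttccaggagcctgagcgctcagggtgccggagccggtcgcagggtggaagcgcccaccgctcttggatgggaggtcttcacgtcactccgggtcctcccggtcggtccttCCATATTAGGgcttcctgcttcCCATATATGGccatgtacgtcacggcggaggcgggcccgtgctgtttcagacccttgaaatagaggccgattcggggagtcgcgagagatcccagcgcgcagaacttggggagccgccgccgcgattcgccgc
Zfp36: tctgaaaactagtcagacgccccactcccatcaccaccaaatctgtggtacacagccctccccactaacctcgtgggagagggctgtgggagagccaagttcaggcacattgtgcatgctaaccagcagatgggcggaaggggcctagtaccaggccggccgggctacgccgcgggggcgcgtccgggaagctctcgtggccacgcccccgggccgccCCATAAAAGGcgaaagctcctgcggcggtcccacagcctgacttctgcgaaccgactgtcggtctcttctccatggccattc
Jund: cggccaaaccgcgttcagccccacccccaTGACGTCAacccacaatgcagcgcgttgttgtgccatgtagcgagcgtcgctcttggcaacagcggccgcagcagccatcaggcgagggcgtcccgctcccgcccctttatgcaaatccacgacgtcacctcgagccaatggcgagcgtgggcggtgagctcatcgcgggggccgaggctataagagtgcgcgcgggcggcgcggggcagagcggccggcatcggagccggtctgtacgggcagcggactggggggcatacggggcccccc
Dusp1: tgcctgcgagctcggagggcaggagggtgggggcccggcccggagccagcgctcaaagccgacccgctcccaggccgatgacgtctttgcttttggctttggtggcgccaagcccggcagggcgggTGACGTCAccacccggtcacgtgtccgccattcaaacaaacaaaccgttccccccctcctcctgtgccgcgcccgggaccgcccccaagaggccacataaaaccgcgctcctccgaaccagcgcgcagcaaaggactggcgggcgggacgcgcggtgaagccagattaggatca

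The elements begin 105 and 83 bases before the start of Egr1, 32 before that of Zfp36, 221 before that of Jund and 124 before that of Dusp1. Both strands were searched, and the motifs do not overlap. A CArG box was in 4 of the 16 immediate early genes with a promoter sequence (25.0%) and in 1 of 10 DUSP genes (10%), beside 1.64% of all 27457 promoters; the cAMP response element was in 4 of 16 (25.0%) and 1 of 10 (10%), beside 1.91% of all. A match describes these letters only.

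Immediate early genes were lower in Achilles tendon and varied widely among the flexor libraries. Of 27 tested 18 were lower and 1, Klf10, was higher, with a median log2 fold change of -1.20. Fos had 118, 36.2, 68.8 and 34.1 CPM in Achilles and 178, 222, 1535 and 842 CPM in flexor libraries (-3.43 ± 0.901, adjusted p = 0.00599; -2.66 without flexor 3). Jund had 15.2, 11.1, 18.6 and 53.5 CPM in Achilles and 92.2, 85.6, 478 and 386 CPM in flexor libraries (-3.40 ± 0.723; -4.12 without Achilles 4). For both genes flexor 3 and 4 were far above flexor 1 and 2, and every flexor library was above every Achilles library. Egr1, which also acts in tendon formation, had 78.5, 65.8, 97.4 and 97.7 CPM in Achilles and 352, 358, 1012 and 526 CPM in flexor libraries (-2.73 ± 0.373, adjusted p = 4.58e-05). Klf2, a factor of flow-exposed endothelium, was lower (-4.61 ± 0.556). Zfp36, which destabilises cytokine mRNA, was lower (-1.96 ± 0.429). Of 11 DUSP genes 6 were lower and 1 higher: Dusp1 had 74.6, 64, 101 and 164 CPM in Achilles and 929, 1034, 1897 and 1383 CPM in flexor libraries (-3.70 ± 0.351, adjusted p = 2.29e-06). With the muscle covariate 9 of the immediate early genes and 5 of the DUSP genes were lower. Of 19 circadian clock genes 13 were lower and 0 higher (median -0.92), with Npas2 at -3.16 ± 0.414 and Nr1d2 at -1.74 ± 0.31; with the muscle covariate 8 were lower. Among 17 heat shock genes 5 were lower, Hspb1 among them (-1.87 ± 0.207), and 1 was higher, a call lost without Achilles 1, 3 or 4 or flexor 3 or 4. The share of heat shock genes called was 35.3%, beside 47.7% of all genes.

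Genes of cell division were higher in the Achilles. All 25 mitosis genes tested and 23 of 24 DNA replication genes were higher, with median log2 fold changes of 2.81 and 1.02; the counts were 25 and 23 without Achilles 1, and 25 and 21 with the muscle covariate. Top2a, the topoisomerase of dividing cells, had 15.1, 29.4, 40.2 and 46.1 CPM in Achilles and 1.71, 2.27, 1.18 and 1.1 CPM in flexor libraries (4.38 ± 0.377, adjusted p = 1.09e-06). Mki67, the gene of the proliferation antigen Ki-67, stood at 17.9 ± 9.49 CPM in Achilles tendon, against 3.09 ± 1.45 CPM in flexor tendon. Mcm5, a subunit of the helicase that opens replication origins, had 25.1, 39.2, 39 and 32.2 CPM in Achilles and 3.03, 3.49, 3.61 and 2.93 CPM in flexor libraries (3.38 ± 0.22, adjusted p = 1.82e-07). Its partner Mcm3 was higher by 2.17 ± 0.155. Achilles 1 was the lowest Achilles library for each of these genes and still lay above every flexor library. The cyclin genes Ccnd2 and Ccnd1 were higher (1.46 ± 0.0915 and 1.41 ± 0.169), and the cell cycle inhibitor Cdkn1a and the retinoblastoma gene Rb1 were lower (-1.40 ± 0.299 and -1.53 ± 0.154). Of 15 genes in the list of D cyclins and CDK inhibitors, 9 were higher and 4 lower, with log2 fold changes of -1.66 to 2.4. With the muscle covariate 5 were higher and 3 lower.

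E2F factors bind the promoters of many replication genes. An E2F element, TTTGGCGC or TTTCCCGC on either strand, was in 7 of the 19 replication genes with a promoter sequence (36.8%), beside 1.53% of all promoters. The promoters of Mcm5 (chr19:13488563-13488862, plus strand) and Mcm3 (chr9:30733697-30733996, minus strand), from the same RefSeq build and with the same window, show where these letters lie; capitals mark the E2F elements, which begin 209 and 8 bases before the start of Mcm5 and 6 before that of Mcm3.
Mcm5: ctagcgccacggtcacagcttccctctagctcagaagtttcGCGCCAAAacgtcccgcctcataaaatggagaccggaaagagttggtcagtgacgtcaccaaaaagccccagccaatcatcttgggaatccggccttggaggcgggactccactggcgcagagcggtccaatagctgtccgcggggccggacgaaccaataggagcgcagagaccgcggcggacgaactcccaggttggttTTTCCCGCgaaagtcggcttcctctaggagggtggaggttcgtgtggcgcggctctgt
Mcm3: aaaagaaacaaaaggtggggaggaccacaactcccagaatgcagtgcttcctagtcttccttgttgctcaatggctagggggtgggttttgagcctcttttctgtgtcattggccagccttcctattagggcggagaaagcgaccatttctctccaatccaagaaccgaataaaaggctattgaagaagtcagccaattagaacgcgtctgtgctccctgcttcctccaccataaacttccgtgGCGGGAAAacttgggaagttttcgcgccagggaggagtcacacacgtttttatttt

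Enzymes that make serine and feed carbon units into nucleotide synthesis were higher along with these genes, 9 of 11 tested, with 0 lower and a median of 1.48. Psat1, of serine synthesis, had 61.8, 53, 48.3 and 54.6 CPM in Achilles and 5.85, 8.42, 7.85 and 8.19 CPM in flexor libraries (2.84 ± 0.182, adjusted p = 1.66e-07). Phgdh, the first enzyme of that route, was higher by 2.89 ± 0.301, and Aldh1l2 and Mthfd2, of the mitochondrial folate cycle, by 3.28 ± 0.234 and 2.25 ± 0.155. The imprinted genes Mest and Nnat stood at 71.7 ± 15.5 and 227 ± 166 CPM in Achilles tendon, against 7.93 ± 2.41 and 7.22 ± 3.19 CPM in flexor tendon; Nnat had 474 CPM in Achilles 1 and averaged 144 ± 20.8 CPM in the other 3 (SD, n = 3). Of 11 imprinted growth genes 5 were higher and 0 lower, or 45.5% called, near the 47.7% of all genes.

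**Figure D4:**
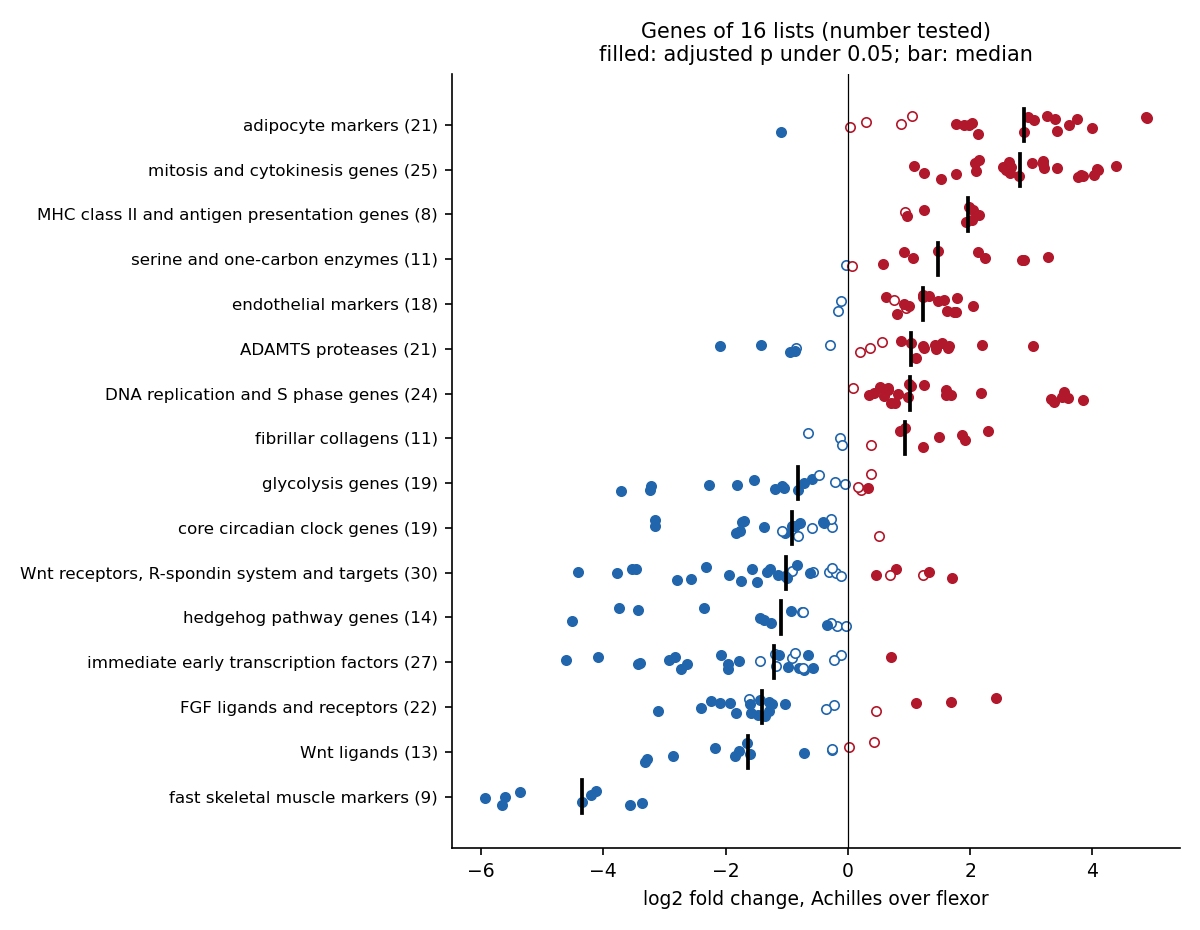
Log2 fold change, Achilles over flexor (horizontal axis), of each gene tested in 16 lists (one line per list, ordered by its median). Filled points are genes called, open points genes not called, and the bar is the list's median; mitosis genes all lie right of 0 and fast muscle genes all lie left of it.

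Fat, endothelial and red blood cell genes were mostly higher in Achilles tendon. Of 21 adipocyte markers 16 were higher and 1, the glucose transporter gene Slc2a4, which muscle also expresses, was lower. Lep, leptin, had 384, 244, 320 and 97.4 CPM in Achilles and 6.43, 7.73, 5.07 and 16.5 CPM in flexor libraries (4.87 ± 0.604), and Adipoq, adiponectin, had 2118, 1074, 1359 and 647 CPM and 105, 132, 85.7 and 173 CPM (3.39 ± 0.572). The tendons did not overlap for either gene, and Achilles 4 was the lowest Achilles library for both. Of 18 endothelial markers 14 were higher and 0 lower (median 1.23); Egfl7, secreted by endothelium, stood at 174 ± 27.7 CPM in Achilles tendon, against 42 ± 3.71 CPM in flexor tendon (2.05 ± 0.238), and Gpihbp1, which anchors lipoprotein lipase on capillaries, at 65.2 ± 38.3 and 2.18 ± 0.731 CPM. Markers of pericytes and smooth muscle summed to 0.196 to 0.345% in Achilles and 0.156 to 0.433% in flexor libraries, and of 14 such genes 4 were higher and 1 lower (2 lower without Achilles 1 or 2 or flexor 3). The vessel growth factors divided: Angpt4 was higher (3.87 ± 0.303) and Vegfa lower (-1.71 ± 0.281). Of 8 erythroid markers 5 were higher, with the haemoglobin gene Hbb at 273 ± 30.4 CPM in Achilles and 59.8 ± 28.9 CPM in flexor tendon; near-identical haemoglobin genes may share reads. Alb, serum albumin, had 14.2, 8.94, 12.2 and 8.63 CPM in Achilles and 0 to 6 counts in each flexor library, and 2 of 5 plasma protein genes were higher. Genes of MHC class II were higher in 7 of 8 cases (median 1.96; 5 of 8 without Achilles 1, and 2 with the muscle covariate), with Cd74 at 811 ± 78.9 CPM in Achilles and 195 ± 49 CPM in flexor tendon. Macrophage markers summed to 0.146 to 0.258% in Achilles and 0.141 to 0.249% in flexor libraries, and 4 of 15 were higher (2 without Achilles 1 or 3 or flexor 1 or 2).

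Fast muscle genes were lower in Achilles tendon, whereas Myh7 of slow fibres was higher. All 9 fast muscle markers were lower, with a median of -4.34; Myh4, the myosin of fast fibres, had 60.5, 378, 74.4 and 254 CPM in Achilles and 15370, 8798, 3684 and 11040 CPM in flexor libraries (-5.66 ± 1.28), and its near-identical relatives may share reads. Myh7, the myosin of slow fibres, had 1.33, 1601, 250 and 1550 CPM in Achilles and 65.7, 19.9, 3.75 and 12.2 CPM in flexor libraries (5.07 ± 1.45, adjusted p = 0.0101; 6.18 without flexor 1, and -0.44 with an adjusted p of 0.883 with the nerve markers as a covariate). Achilles 1 was thus the lowest of all 8 libraries for Myh7, while Achilles 2 to 4 were above every flexor library. Among the 19 markers of slow fibres and of muscle in general, 2 passed as higher (1 without Achilles 2 or 4 or any 1 flexor library) and 9 as lower, against 3 and 3 without Achilles 1, and 1 to 3 passed as lower without Achilles 3 or flexor 1, 2 or 4. Lbx1, a factor of the muscle precursors that migrate into limbs, stood at 0 to 0.289 CPM in Achilles tendon, against 4.82 to 17.4 CPM in flexor libraries. Myod1, the gene that commits cells to muscle, was lower (log2 fold change -5.02 ± 1.21, -5.66 without Achilles 4, and 0.7 with an adjusted p of 0.436 with the muscle covariate). Of 11 satellite cell and myogenic markers 7 were lower and 1 higher, and with the muscle covariate 1 was lower and 1 higher. Of 19 glycolysis genes 12 were lower and 1 higher (2 higher without flexor 3), with the muscle covariate 3 were lower, and Pfkm, the muscle phosphofructokinase, stood at 66 ± 26.1 CPM in Achilles tendon, against 864 ± 357 CPM in flexor tendon. Over all genes, 4724 calls were made with that covariate, 4392 of them among the 8076. The covariate is partly confounded with the contrast, and the part of muscle RNA in any single result was not tested.

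Nerve genes depended on 1 library. Of 19 Schwann cell and nerve markers 0 were higher and 2 lower in all libraries, with a median of -0.31, but 15 were lower without Achilles 1, with a median of -2.13 (5 lower without flexor 3). Mbp, myelin basic protein, which compacts the myelin sheath, had 1107, 88.4, 79.1 and 65.1 CPM in Achilles and 448, 388, 167 and 416 CPM in flexor libraries. Achilles 1 was thus above and Achilles 2 to 4 below every flexor library, and the log2 fold change was -0.08 ± 0.745 (adjusted p = 0.938) with Achilles 1 and -2.19 (adjusted p = 0.000441) without it. Sox10, the factor of the Schwann cell lineage, had 9.75, 5.2, 5.66 and 6.97 CPM in Achilles and 7.39 to 22.2 CPM in flexor libraries, and was lower with and without Achilles 1 (-1.25 and -1.46). Achilles 1 also held hair keratin genes: Krt86 had 22 CPM there, 0.0202 to 0.0725 CPM in Achilles 2 to 4 and 0 to 0.0283 CPM in flexor libraries, and was not called without Achilles 1 (adjusted p = 0.239). Among the tendon markers, Achilles 1 had the lowest Scx and Tnmd of the 4; without it Tnmd, which encodes tenomodulin, was called higher (1.24, adjusted p = 0.0192, against 0.96 and 0.0805 with it).

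The direction of change varied with the sequence and size of the gene. A RefSeq promoter could be matched by symbol to 11434 of the 16948 genes tested (67.5%), too few for a check over all genes, so these values describe the matched genes only. In the decile with the lowest promoter GC content (23.3 to 47.3%) 27.4% of 1144 genes were higher and 19.1% lower in Achilles tendon, and in the decile with the highest (72.7 to 88.7%) 10.1% of 1144 were higher and 53.2% lower, with a median log2 fold change of -0.63. In that last decile the median deviation from the mean of the 8 libraries was -0.49, -0.30, -0.27 and -0.13 in Achilles 1 to 4 and 0.31, 0.35, 0.26 and 0.28 in flexor 1 to 4, on the log2 scale. All 4 libraries of a tendon thus lay on the same side. Among lists with a promoter sequence for over 80% of their genes, the median promoter GC content was 70.0% in the Wnt ligands, 67.0% in the DUSP genes, 61.0% in the FGF genes and 58.0% in the glycolysis genes, all lower more often than higher in Achilles tendon. It was 60.3% in the mitosis genes and 57.7% in the serine and one-carbon enzymes, both mostly higher. These are not all lists with such coverage. The imprinted growth genes had 64.7% (5 higher, 0 lower) and the basement membrane genes 62.7% (7 higher, 3 lower). Genes of protein folding and collagen secretion had 62.0% (7 higher, 2 lower), and glycosaminoglycan synthesis genes 68.0% (5 higher, 10 lower). In the ADAMTS list, where 76.2% had a sequence, the median was 71.3%, the highest of the lists, and most genes were higher. Gene span, known for 14060 of the genes (83.0%), ran the same way: 29.8% were higher and 19.2% lower among the shortest decile (0.06 to 4.22 kb), against 15.8 and 36.1% among the longest (132 to 2970 kb). The part of GC content and gene span in the results was not tested.

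**Figure D5:**
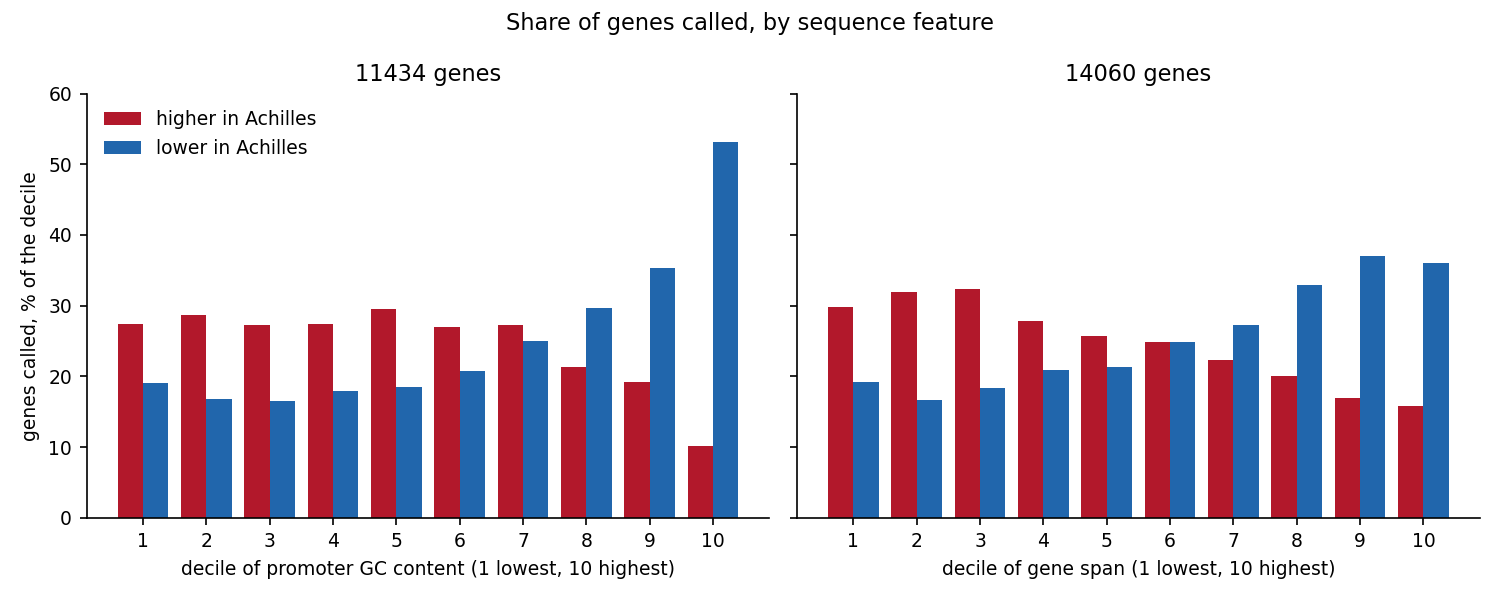
Percentage of genes called higher (left bar of each pair) and lower (right bar) in Achilles than in flexor tendon, by decile of promoter GC content (left panel, 11434 genes) and of gene span (right panel, 14060 genes), from the lowest decile to the highest. The share called lower climbs to 53.2% in the decile richest in GC and is 36.1% in the decile of longest genes.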

How the data were processed

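RNA was measured by sequencing in 16 tendon libraries, 4 per tendon. The authors deposited raw counts per Ensembl gene for every library, per the file headers; HISAT2, FastQC, edgeR and the genome build rn6 are named without versions in the submitters' processing notes, and the sources used here do not name the counting program, the annotation release or the strand setting. Genes that overlap, or that share reads with near-identical copies, are therefore uncertain. The authors' deposited edgeR table gives, per the file headers, a log2 fold change, a p-value and an adjusted p-value for each of 12588 genes and each pair of tendons; only the Achilles and flexor pair was used.

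From the counts of 23285 genes, the 16948 that passed filterByExpr (minimum count 10, minimum total 15) were scaled by TMM and tested in R 4.3.3 with the quasi-likelihood test of edgeR 4.0.16. All 16 libraries shared 1 estimate of the spread (12 residual degrees of freedom), no block was used, and p-values were adjusted over all genes tested by the Benjamini-Hochberg method with a threshold of 0.05. Log2 fold changes are Achilles over flexor and come from this fit, with edgeR's default prior count. A prior count of 2 was used only for log2 CPM values, as in the principal components and the covariates. The standard error is the fold change divided by the root of its F value. CPM values are scaled by TMM. The unit of replication is the library, grouped by its title, and no pair of libraries of a tendon agreed within counting noise. On simulated counts for these 16948 genes with 200 changed, the test recovered 28% of genes changed 1.5-fold, 48% at 2-fold, 94% at 4-fold and 100% at 8-fold, and 8.16% of its 147 calls were false.

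The comparison, the gene lists and the rule for naming genes were chosen with earlier results of these data known. Named genes were drawn from the 15 largest changes and the 15 smallest p-values in each direction among called genes with at least 5 CPM in the higher tendon and no overlap, up to 5 members of a list with the largest changes and the most abundant member, any ligand, receptor, HOX or limb factor, genes called against the direction of their list, and up to 10 genes that moved most without Achilles 1. Of the 30 largest changes 18 are named, and of the 30 smallest p-values 17; which of the genes allowed by the rule are described was decided with their values known. Outside this rule, Adipoq, Col3a1, Col5a3, Comp, Mbp, Mki67, Mkx, Piezo1, Prg4, Scx, Thbs4, Tnmd and Zfp36 were chosen after their values were seen. A list is described by its counts and its median beside 0.008, the median over all genes. The muscle and nerve covariates are the mean log2 CPM of the fast muscle and of the Schwann cell markers. Alternatives were DESeq2 1.42.0, limma-voom (limma 3.58.1), other scalings and filters, a replicate block, both covariates, a test against a 2-fold change and leaving out each library. Promoters were matched by symbol to RefSeq sequences of build GRCr8, with Python 3.11.15, and figures were drawn with matplotlib 3.10.9. A result on an item withheld for evaluation is not reported here.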

Additional observations from a re-analysis of the deposited data

Results flagged for a closer look

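Of 308 groups of 4 libraries, each the level of 1 named gene or 1 of 6 marker sums in 1 tendon, 25 had a library far from the other 3 by Dixon's 95% criterion, which chance meets in about 1 in 20 groups. Achilles 1 was the library apart in 8 of them and flexor 3 in 9. Achilles 1 was high for the Schwann cell and nerve markers (0.894%), Mbp (1107 CPM), Nnat (474.2 CPM), Krt86 (21.96 CPM), Adamts4 (48.4 CPM), Frzb (37.69 CPM) and Shh (0.3101 CPM) and low for Isl1 (12.78 CPM). Flexor 3 was high for Cilp (2405 CPM), Fbln1 (618.3 CPM), Ntn4 (79.49 CPM), Tbx5 (39.42 CPM), Hoxd9 (30.82 CPM), Fgf9 (29.32 CPM) and Hoxc11 (0.009727 CPM, a single count), and low for Mest (4.319 CPM) and Hoxc9 (0 CPM).

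Achilles 4 was high for Adamts2 (177.9 CPM), Vegfa (62.72 CPM) and Sox9 (24.78 CPM) and low for Ccnd1 (224.2 CPM). Flexor 2 was high for Tnc (149.4 CPM) and low for Hspb1 (491 CPM), flexor 4 was high for Nnat (11.98 CPM), and flexor 1 was high for Krt86 (0.02831 CPM, 3 counts, against none in the other flexor libraries).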

How the results depend on the processing

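The number of genes called lay between 7293 and 8730 under other scalings, filters and tests, beside 8076. With the fast muscle markers as a covariate it was 4724 (2337 higher and 2387 lower; 13 shared calls changed sign), and for a change of more than 2-fold it was 1928 (799 higher and 1129 lower). Leaving out 1 library gave 7223 to 8031 calls, 3594 to 3955 higher and 3439 to 4076 lower. No clear pairing by replicate number was seen: 1 of 4 same-numbered pairs had deviations correlated above 0.1, and 1 Achilles library correlated best with its own number. Such correlations cannot exclude that same-numbered libraries came from the same animal. With the number as a replicate block 8026 genes were called, 3893 higher and 4133 lower.

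Of 139 named genes that were called, 25 were not called with the muscle covariate, 11 with the nerve covariate, 29 against a 2-fold change and at most 7 in each of the other alternatives. Some signs turned. Scx stood at 0.01 with library totals and with the stricter filter and at 0.04 with the muscle covariate, Mkx at -0.16 in limma-voom, -0.01 with the block and -0.86 with the nerve covariate (adjusted p = 0.0132), and Prg4 at -0.04, -0.03 and 0 under the same 3. With the muscle covariate Mbp and Myod1 stood at 0.26 and 0.7, and with the nerve covariate Mbp, Myh7 and Tnmd at 0.48, -0.44 and -0.04. Mbp is itself one of the genes averaged in the nerve covariate, so nothing is drawn from its value there. The cause of the other turns was not tested. Over the 8 fits that left out 1 library, signs also turned for Scx (-0.95 to 0.32), Fmod (-0.36 to 0.09), Thbs4 (-0.27 to 0.17), Mkx (-0.21 to 0.34), Prg4 (-0.26 to 0.2) and Mbp (-2.19 to 0.26).

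At these depths 3 counts are at most 0.0334 CPM. In the simulated counts, changes under 2-fold were often missed. Only 200 genes were changed there, against 8076 called in the data, so the share missed in the data is not known. Library totals without TMM moved the median of all genes by 0.071 and made 55% of calls higher, against 49.4%.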

Other observations

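Of 19 genes that handle retinoic acid, a signal of limb patterning, 5 were higher and 6 lower in Achilles tendon, shares near the 23.5 and 24.1% of all genes. Rbp4, which carries retinol and is made by fat cells among others, had 441, 292, 326 and 220 CPM in Achilles and 28.6, 37, 40.9 and 53.7 CPM in flexor libraries (log2 fold change 3 ± 0.363, adjusted p = 1.67e-05). Rdh10, which makes the direct precursor of retinoic acid, had 4.32, 4.54, 5.87 and 5.2 CPM in Achilles and 20.6, 21, 24.4 and 24.1 CPM in flexor libraries (-2.18 ± 0.21, adjusted p = 2.52e-06). Neither gene overlapped between the tendons, and with the muscle covariate 2 of the list were higher and 3 lower.

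Of 24 TGF-beta, activin and latency genes 3 were higher and 11 lower in Achilles tendon, and of 25 integrin and adhesion genes 3 were higher and 9 lower; 58.3 and 48% were called, beside 47.7% of all genes. Ltbp4, which tethers latent TGF-beta in the matrix, had 242, 377, 400 and 490 CPM in Achilles and 1258, 1459, 1716 and 1254 CPM in flexor libraries (-1.92 ± 0.242). Itgb5, a partner of the alpha-v integrin that binds vitronectin, had 20.8, 30.4, 29.5 and 34.9 CPM in Achilles and 142, 162, 219 and 219 CPM in flexor libraries (-2.68 ± 0.22). Xylt1, which starts glycosaminoglycan chains on proteoglycan cores, had 1.02, 1.66, 1.6 and 2.39 CPM in Achilles and 18.3, 20.3, 26.7 and 14.6 CPM in flexor libraries (-3.58 ± 0.333), and 5 of 28 genes of that synthesis were higher and 10 lower. For Ltbp4, Itgb5 and Xylt1 each Achilles library lay below every flexor library. The share called was 53.6% of the glycosaminoglycan synthesis genes. Of 24 chemokines and cytokines 10 were higher and 4 lower (2 lower without Achilles 2 or 3 or flexor 3), with Cxcl12, a chemokine of stromal cells, at 520, 438, 414 and 266 CPM in Achilles and 117, 111, 98.3 and 105 CPM in flexor libraries (1.93 ± 0.296). Of 27 oxidative phosphorylation genes, which serve mitochondrial respiration, 2 were lower and 0 higher, or 7.41% called; 0 were lower without Achilles 1 or flexor 1 or 4, and 1 without Achilles 2, 3 or 4 or flexor 2.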
